A study of Mus musculus with 18 samples.

Results

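The collagen chain genes are the rows of the adipose and bone marrow count tables whose gene name is Col, a number, the letter a and a number. 44 of the 46983 gene names met this rule, and the same 44 were in both tables. By the assembly that the encoded chains are known to form they fall into 11 fibrillar genes, 6 basement membrane genes, 6 beaded filament genes, 9 FACIT genes, 3 network genes, 4 transmembrane genes, 2 multiplexins, 1 anchoring fibril gene and 2 others. The libraries came from mice of the inbred strain C57BL/6J, all male, and all sample descriptions carry HFD, the usual abbreviation of high-fat diet, in a study whose title concerns glutamine in obese mice. Each tissue had 4 libraries of the HFD group, with no treatment, and 5 libraries of the HFD group given glutamine, an amino acid. The titles call the adipose libraries mAT-MSC VAT and the bone marrow libraries mBMSC. Each title carries a pair of numbers, such as 1+3, and the labels do not say whether these are pooled animals or whether libraries came from separate animals, so p-values measure only the spread between these libraries. The diet, sex and strain were shared by all 4 groups, and no group on another diet was analysed here.

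Collagens are triple-helical proteins of the extracellular matrix, and the chains of one helix may come from different genes. Collagen I, the main protein of bone, is built from the products of Col1a1 and Col1a2, while cartilage rests on collagen II with collagens IX and XI. Collagen IV forms the mesh of basement membranes, which surround adipocytes and vessels, and collagen VI forms beaded filaments that are abundant around adipocytes. FACIT collagens sit on the surface of fibrils.

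Counts came from reads near the 3′ end of transcripts, so levels of different genes were compared as counts per 1000000 counts of a library (CPM), with no length correction. Adipose libraries held 35871168 to 59529238 counts and 11361 to 14469 genes with at least 100 counts. Bone marrow libraries held 13970788 to 37984603 counts and 1755 to 7323 such genes. Of the collagen genes, 28 to 33 reached 100 counts in an adipose library and 10 to 25 in a bone marrow library. Values below are listed in the order 1+3, 5+11, 14+17 and 23+28 for HFD and 4+6, 10+12, 13+15, 18+20 and 25+27 for glutamine. In bone marrow the third glutamine place is an unnumbered library, since its column name bears numbers that no bone marrow title has. In these bulk samples, fewer cells of a type and less RNA per cell cannot be told apart.

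The tissue labels were set against lists of marker genes. The 7 osteoblast markers summed to 26.6 to 61.5 CPM in adipose and 1436 to 9417 CPM in bone marrow, mostly Bglap, Ibsp and Spp1. Alpl stood at 14.3 to 49.4 CPM in adipose. In bone marrow it was 0.260 to 3.57 CPM in 14+17, 23+28, 4+6 and 25+27 and 99.9 to 871 CPM elsewhere. Runx2 stood at 2.79 to 13.3 CPM in adipose. In bone marrow it was 0.172 to 0.546 CPM in 1+3, 23+28, 4+6 and 25+27 and 59.8 to 347 CPM elsewhere. Sp7 and Dmp1 were near 0 in most bone marrow libraries. The 5 adipose progenitor markers summed to 13501 to 20333 CPM in adipose and 1511 to 4628 CPM in bone marrow. The 7 chondrocyte markers summed to 103 to 2787 CPM in bone marrow and 43.9 to 266 CPM in adipose, where Sox9 alone gave 42.2 to 258 CPM, so this list overlapped between tissues, and Matn1, a cartilage matrix gene, had 0 counts in all libraries. The 4 adipocyte markers overlapped too, with a median sum of 60.9 CPM in adipose and 272 CPM in bone marrow, which went against the tissue names. Nearly all of the bone marrow sum was Adipoq, which is also on the list of marrow stroma. Blood cell markers were present as well. The 5 neutrophil markers summed to 2067 to 33135 CPM in bone marrow against 29.5 to 112 CPM in adipose, and the 4 erythroid markers to 2947 to 13275 CPM and 1483 to 13861 CPM. Endothelial markers stood at 378 to 1485 CPM in adipose and macrophage markers at 93.9 to 483 CPM, so the adipose libraries held transcripts of other cells than stroma. The 4 mesothelial markers summed to 195 to 565 CPM in 8 adipose libraries and to 1.40 CPM in the glutamine library 25+27. The part of these other cells in the collagen values was not tested, also where a marker sum is given beside a result.

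Collagen genes took a larger share of all counts in bone marrow than in adipose, in all 18 libraries. The share was 2.85%, 3.09%, 3.39% and 3.08% in the adipose HFD libraries and 3.17%, 3.61%, 2.89%, 3.57% and 4.26% in the adipose glutamine libraries. In bone marrow it was 13.7%, 25.4%, 30.5% and 6.47% with HFD and 12.5%, 22.9%, 17.2%, 22.9% and 9.1% with glutamine. The lowest bone marrow share, 6.47%, lay above the highest adipose share, 4.26%. The mean was 3.10% ± 0.222 (SD, n = 4) and 3.50% ± 0.518 (SD, n = 5) in the adipose arms, and 19.0% ± 10.9 (SD, n = 4) and 16.9% ± 6.19 (SD, n = 5) in the bone marrow arms, so the arms overlapped within each tissue. The lowest bone marrow shares were those of libraries 23+28 and 25+27, which had the highest neutrophil marker sums, 33135 and 14747 CPM. The unnumbered library had the next highest sum, 11997 CPM, at a share of 17.2%. The part of neutrophils in these shares was not tested.

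**Figure D1:**
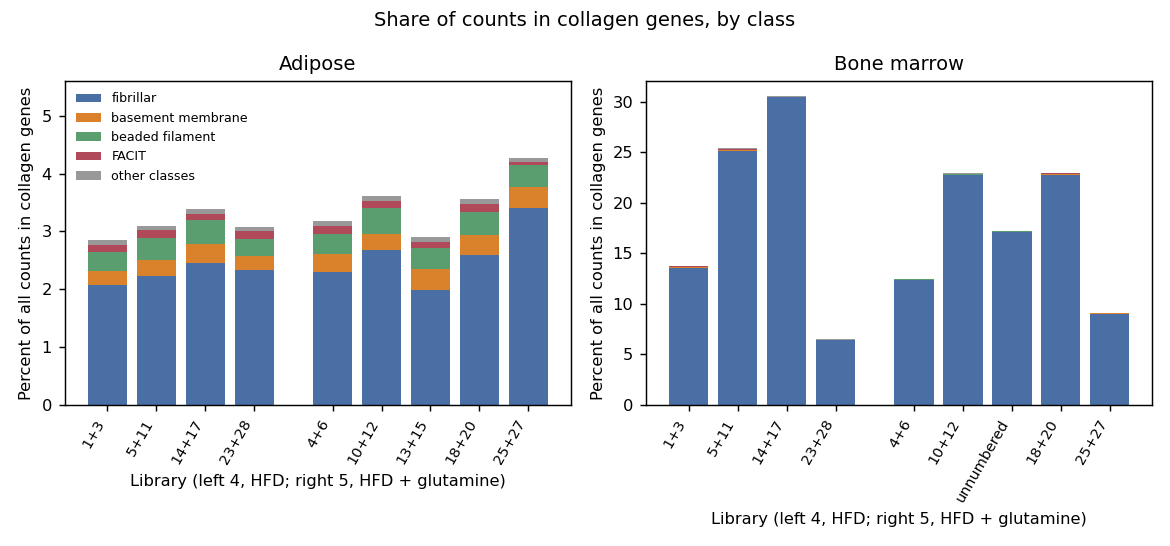
Percent of all counts in collagen genes (vertical axis, one scale for each tissue) in each library (horizontal axis), stacked by collagen class. The 9 bone marrow bars lie between 6.47% and 30.5% and are almost wholly fibrillar, while the adipose bars lie between 2.85% and 4.26% and hold visible shares of other classes.

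The make-up of this share differed between tissues. The shares of fibrillar, basement membrane, beaded filament, FACIT and multiplexin genes did not overlap between the 9 libraries of each tissue, while those of network genes did. Fibrillar genes gave 73.4% ± 2.96 (SD, n = 9) of the collagen counts in adipose, with a range of 68.9% to 79.7%, and 99.2% ± 0.366 (SD, n = 9) in bone marrow, with a range of 98.6% to 99.7%. Beaded filament genes followed in adipose with 11.3% ± 1.36 (SD, n = 9), then basement membrane genes with 9.20% ± 1.30, FACIT genes with 3.74% ± 0.968, multiplexins with 1.75% ± 0.260 and network genes with 0.540% ± 0.198. In bone marrow FACIT genes gave 0.332% ± 0.167 (SD, n = 9), beaded filament genes 0.184% ± 0.2 (SD, n = 9) and basement membrane genes 0.101% ± 0.0895 (SD, n = 9) of the collagen counts. These shares are of counts within a library and do not depend on scaling between libraries.

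**Figure D2:**
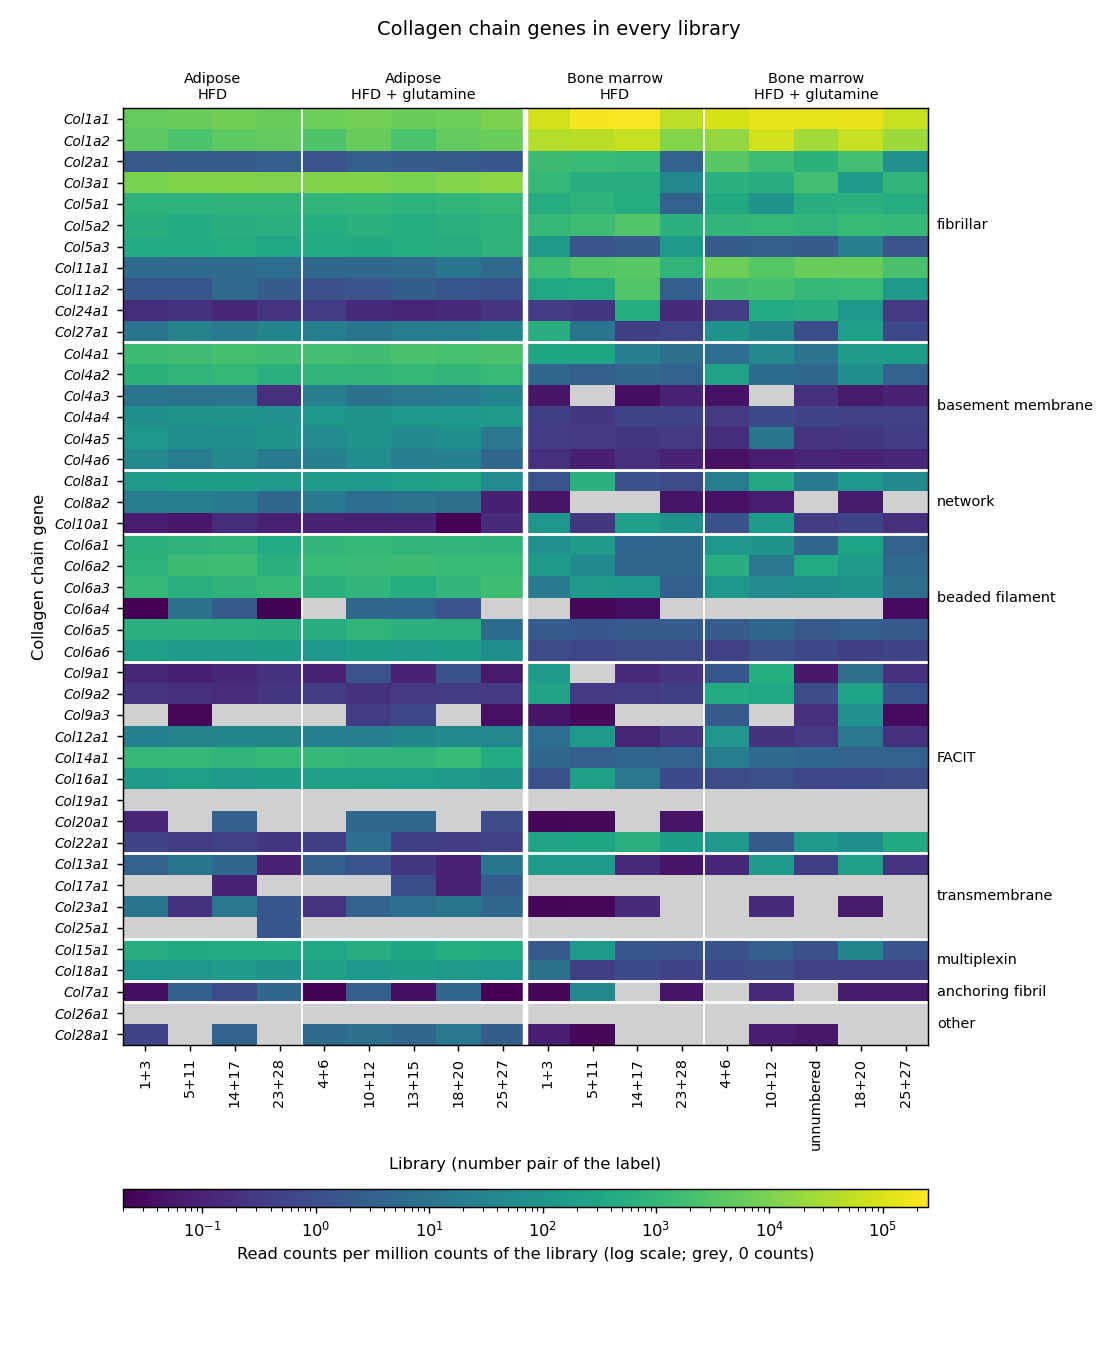
CPM of the 44 collagen genes (rows, grouped by class) in the 18 libraries (columns, by tissue and arm), on a log colour scale, with grey for 0 counts. Adipose columns look alike within a row, while many rows of bone marrow switch between bright and dark from library to library.

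Detection followed the same division. In adipose 24 of 44 genes had at least 100 counts in all 9 libraries, 12 in 1 to 8 libraries and 8 in none. In bone marrow 7 genes reached 100 counts in all 9 libraries, 23 in 1 to 8 libraries and 14 in none. Col19a1 and Col26a1 had 0 counts in all 18 libraries, and Col17a1, a transmembrane collagen of epithelia, and Col25a1 had 0 counts in all 9 bone marrow libraries.

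Among the fibrillar genes, Col3a1, which encodes the homotrimeric collagen III of soft tissues, was the most abundant collagen gene in every adipose library. Col3a1 (chromosome 1, 45311538 to 45349706, plus strand, GENCODE M21 on GRCm38) stood at 9531, 11674, 11001 and 10940.2 CPM with HFD and 11333, 11102, 9410.0, 12041 and 14803 CPM with glutamine. In bone marrow it stood at 1080.0, 547, 522 and 41.4 CPM with HFD and 701, 546, 1875, 155 and 877 CPM with glutamine. The Col3a1 gene overlaps a miRNA model on the same strand, and how reads in that overlap were counted was not stated.

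Col1a1 (chromosome 11, 94936224 to 94953042, plus strand) was the most abundant collagen gene in every bone marrow library, at 87377, 197529, 229651 and 50299 CPM with HFD and 90731, 137741, 133601, 158097 and 61773 CPM with glutamine. In adipose it stood at 5279, 6455, 7305 and 5536 CPM with HFD and 6960.0, 8144, 6362, 6873 and 10017 CPM with glutamine. Col1a2, its partner chain in collagen I, stood at 41487, 46041, 62117 and 12297 CPM with HFD and 17895, 80763, 26235, 58302 and 23544 CPM with glutamine in bone marrow and at 4082, 2461, 4216 and 4912 CPM with HFD and 2838, 5497, 2395, 4865 and 6468 CPM with glutamine in adipose. No adipose library reached the lowest bone marrow library for either gene.

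The count ratio of Col3a1 to Col1a1, which is free of scaling between libraries, was 1.64 ± 0.203 (SD, n = 9) in adipose and 0.00657 ± 0.00562 (SD, n = 9) in bone marrow. It was 1.81, 1.81, 1.51 and 1.98 with HFD and 1.63, 1.36, 1.48, 1.75 and 1.48 with glutamine in adipose. In bone marrow it was 0.0124, 0.00277, 0.00227 and 0.000822 with HFD and 0.00773, 0.00396, 0.014, 0.000978 and 0.0142 with glutamine, so the tissues did not overlap.

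Collagens V and XI nucleate fibrils in association with collagens I and II. In adipose Col5a1 stood at 778, 781, 842 and 842 CPM with HFD and 916, 974, 776, 944 and 1036 CPM with glutamine. Col5a2 stood at 602, 462, 583 and 644 CPM with HFD and 503, 638, 487, 653 and 782 CPM with glutamine, and Col5a3 at 429, 453, 500.4 and 371 CPM with HFD and 451, 403, 486, 516 and 813 CPM with glutamine. The spread was small except in the glutamine library 25+27, which was highest for all 3 genes. In bone marrow Col5a1 stood at 487, 839, 501 and 3.72 CPM with HFD and 398, 96.5, 555, 693 and 499.9 CPM with glutamine, lowest in libraries 23+28 and 10+12. Col5a2 stood at 1145, 1525, 3059.9 and 686 CPM with HFD and 959.8, 1044, 854, 1324 and 1125 CPM with glutamine there, and its tissues overlapped between 686 and 782 CPM. Col5a3 reached 100 CPM in only 2 bone marrow libraries, 1+3 and 23+28, at 131 and 146 CPM, and ranged from 1.40 to 19.3 CPM in the other 7.

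Col11a1, Col11a2 and Col2a1, whose products are best known from cartilage, were seen in bone marrow and near the bottom of the scale in adipose. Col11a1 (chromosome 3, 114030540 to 114220718, plus strand) stood at 1573, 3187, 3731 and 898 CPM with HFD and 6895, 3308, 5799, 5723 and 2258 CPM with glutamine in bone marrow, and at 4.72 to 11.1 CPM in adipose. Col2a1 stood at 1434, 1197, 1077 and 3.58 CPM with HFD and 3709.6, 1535, 712, 1779 and 77.2 CPM with glutamine, and at 1.34 to 3.09 CPM in adipose. Col11a2 stood at 335, 429, 2869 and 2.93 CPM with HFD and 1626, 2063, 1062, 1285 and 145 CPM with glutamine, and at 1.12 to 5.87 CPM in adipose. Library 23+28 was the lowest for all 3 genes and had the lowest chondrocyte marker sum, 103 CPM.

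The remaining fibrillar genes, Col24a1 and Col27a1, were present in some bone marrow libraries and nearly absent in others. Col24a1 stood at 0.342, 0.288, 487 and 0.149 CPM with HFD and 0.344, 474, 586, 117 and 0.325 CPM with glutamine, which was at least 117 CPM in 4 libraries and at most 0.344 CPM in the other 5. Col27a1 stood at 583, 11.8, 0.429 and 0.596 CPM with HFD and 81.3, 33.4, 1.01, 210.1 and 0.683 CPM with glutamine. In adipose Col24a1 had 6 to 14 counts in a library and Col27a1 had 11.0 to 36.7 CPM.

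The RefSeq sequence just before the start of Col11a1 is shown, since it was the cartilage-type chain with the least variable bone marrow level. It is the plus strand of chr3:114030390-114030539 in GRCm38.p6, written 5′ to 3′, and overlaps no GENCODE exon. Capitals mark each match, on either strand, to a GC box core (GGGCGG), to a CCAAT box (CCAAT) or to a TATA motif (TATAAA).
Col11a1 upstream: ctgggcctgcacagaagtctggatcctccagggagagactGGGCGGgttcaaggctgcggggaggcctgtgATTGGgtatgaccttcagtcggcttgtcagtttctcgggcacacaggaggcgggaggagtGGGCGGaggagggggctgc
Over the 250 bases before a start, 35 of the 44 genes had a RefSeq entry, with 38 windows in all, and 22 of these 38 held GGGCGG against 32.7% of all 32851 windows. CCAAT was held by 13 of the 38 against 33.8% of all windows, and TATAAA by 5 of the 38 against 12.4%. A match is only a description of letters.

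The basement membrane genes were low in bone marrow and clearly present in adipose. Col4a1, the common α1(IV) chain, stood at 1423, 1675, 2076 and 1672 CPM with HFD and 1876, 1689, 2249, 2182 and 2363 CPM with glutamine in adipose. Its partner Col4a2 stood at 709.8, 863, 1080.3 and 630.1 CPM with HFD and 907, 857, 1065, 959 and 1201 CPM with glutamine. Both genes were even over libraries, and the ratio of Col4a2 to Col4a1 was 0.480 ± 0.0463 (SD, n = 9), with the lowest value, 0.377, in HFD library 23+28. The starts of these 2 genes overlap by 22 bases in opposite directions on chromosome 8. The reads came from near the 3′ ends of transcripts, and how reads in an overlap were counted was not stated.

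In bone marrow the same 2 genes did not keep a ratio. Col4a1 stood at 307, 299, 24.9 and 8.19 CPM with HFD and 6.8, 43.9, 9.89, 161 and 177 CPM with glutamine and Col4a2 at 4.82, 2.88, 4.75 and 3.72 CPM with HFD and 239, 6.59, 4.8, 74.1 and 3.35 CPM with glutamine. In the 6 bone marrow libraries where both reached 100 counts, the ratio of Col4a2 to Col4a1 ran from 0.00961 to 35.1. Libraries 1+3, 5+11 and 25+27 had 5434 to 11649 counts of Col4a1 and 100 to 183 of Col4a2, while library 4+6 had 158 and 5550.

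Col4a3 and Col4a4 encode chains that assemble with α5(IV) in the basement membranes of kidney and other organs. Col4a4 (chromosome 1, 82448423 to 82586849, minus strand) and Col4a3 (chromosome 1, 82586921 to 82722059, plus strand) start head to head with 71 bases between them. These bases are shown because both genes had their highest adipose level in the same library, 25+27. They are chr1:82586850-82586920 of GRCm38.p6, read from RefSeq on the minus strand, 5′ to 3′ toward Col4a4, and 69.0% are G or C.
Between Col4a3 and Col4a4: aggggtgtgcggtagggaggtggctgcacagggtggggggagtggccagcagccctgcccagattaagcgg
None of the motifs named above lay within these 71 bases, which says only that those letters are not in this stretch.

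Col4a4 stood at 73.2, 83.4, 92.6 and 79.3 CPM with HFD and 117, 94.6, 109, 118 and 140.4 CPM with glutamine in adipose. All 5 glutamine libraries were above all 4 HFD libraries, with the nearest values at 92.6 and 94.6 CPM. Col4a3 was lower, at 10.7, 9.81, 9.97 and 0.198 CPM with HFD and 24.4, 9.51, 13.4, 15.8 and 31.9 CPM with glutamine, with 9 counts in HFD library 23+28 and 352 to 1506 counts elsewhere. In bone marrow Col4a4 had 7 to 16 counts in a library and Col4a3 0 to 3. Col4a3 overlaps an unnamed transcript on the other strand.

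Col4a5 and Col4a6 are a second head-to-head pair, on the X chromosome with 1308 bases between their starts. Col4a5 stood at 125, 67.7, 64.7 and 91.4 CPM with HFD and 53.4, 82.8, 51.1, 69.8 and 14.3 CPM with glutamine in adipose, and Col4a6 at 47, 20.1, 44.3 and 16.5 CPM with HFD and 25.2, 60.7, 21.5, 26.5 and 4.53 CPM with glutamine. Library 25+27 was the lowest for both, and library 10+12 was the highest for Col4a6. The 150 bases before Col4a6 lie between the 2 genes, at chrX:141474077-141474226 of GRCm38.p6, overlap no GENCODE exon, and are shown from RefSeq on the minus strand, 5′ to 3′, with the same motifs in capitals.
Col4a6 upstream: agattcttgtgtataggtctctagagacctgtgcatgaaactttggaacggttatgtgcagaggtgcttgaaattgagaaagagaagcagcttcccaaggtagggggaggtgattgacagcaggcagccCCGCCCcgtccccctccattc
In bone marrow Col4a6 had 1 to 7 counts in a library, and Col4a5 had 4 to 14 counts in 8 libraries and 156 in library 10+12.

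Among the beaded filament genes, Col6a1, Col6a2 and Col6a3 encode the classical chains of collagen VI. In adipose Col6a1 stood at 638, 818, 924 and 439.7 CPM with HFD and 925, 1072, 898, 895 and 814 CPM with glutamine. Col6a2 stood at 758, 1497, 1519.6 and 696 CPM with HFD and 1318, 1377, 1436, 1300.1 and 1243 CPM with glutamine, and Col6a3 at 1051, 637, 814 and 1098 CPM with HFD and 677, 959.8, 481, 1023 and 1552 CPM with glutamine. The ratio of Col6a2 to Col6a1 was 1.50 ± 0.194 (SD, n = 9). In bone marrow Col6a2 stood at 171, 49.8, 5.04 and 4.97 CPM with HFD and 585, 14.3, 439, 151 and 5.37 CPM with glutamine, Col6a1 at 3.71 to 256 CPM and Col6a3 at 2.83 to 150 CPM.

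The ratio of Col6a3 to Col6a1 in adipose was 1.65, 0.778, 0.88 and 2.5 with HFD and 0.732, 0.895, 0.536, 1.14 and 1.91 with glutamine. The 3 lowest libraries were 13+15, 4+6 and 5+11. The same 3 libraries were the lowest for the ratio of Col1a2 to Col1a1, which was 0.773, 0.381, 0.577 and 0.887 with HFD and 0.408, 0.675, 0.377, 0.708 and 0.646 with glutamine, and for the ratio of Col5a2 to Col5a1, which was 0.774, 0.592, 0.692 and 0.765 with HFD and 0.549, 0.655, 0.628, 0.692 and 0.755 with glutamine. They include libraries of both arms. For the ratio of Col4a2 to Col4a1 the lowest library was 23+28, and for the ratio of Col6a2 to Col6a1 it was 1+3.

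Col6a5 and Col6a6 encode longer α3-like chains of collagen VI. Col6a5 (chromosome 9, 105856078 to 105960643, minus strand) stood at 667, 685, 693 and 525 CPM with HFD and 512, 881, 647, 629 and 6.44 CPM with glutamine in adipose, and Col6a6 at 223, 169, 156 and 174 CPM with HFD and 112, 175, 163, 185 and 67.6 CPM with glutamine. Col6a5 had 304 counts in library 25+27 against 21478 to 52420 counts in the other 8. The 150 bases before Col6a5 are shown because the gene stood at 0.980% of the median of the other 8 libraries there. They are chr9:105960644-105960793 of GRCm38.p6, from RefSeq on the minus strand, 5′ to 3′, overlap no GENCODE exon and carry the same motifs in capitals.
Col6a5 upstream: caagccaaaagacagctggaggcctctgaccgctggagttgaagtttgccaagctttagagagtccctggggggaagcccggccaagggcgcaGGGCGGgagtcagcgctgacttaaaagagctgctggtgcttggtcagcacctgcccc
Col6a4, the neighbouring gene, had at most 9.12 CPM in adipose. In bone marrow Col6a5 had 33 to 91 counts and Col6a6 12 to 35 counts in each of the 9 libraries.

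Among the FACIT genes, Col12a1, Col14a1 and Col16a1 reached 100 counts in all 9 adipose libraries. Col12a1 stood at 21.4 to 46.1 CPM in adipose and 0.107 to 138 CPM in bone marrow. Col14a1, whose product binds collagen I fibrils, stood at 1057, 1084, 929 and 1128 CPM with HFD and 1155, 964, 889, 1219 and 473 CPM with glutamine. Col16a1 (chromosome 4, 130047840 to 130099283, plus strand) stood at 172, 220.0, 163 and 195 CPM with HFD and 233, 221, 199.8, 169 and 93.2 CPM with glutamine. Col14a1 and Col16a1 were lowest in library 25+27, with the other 8 libraries within a narrow range. In bone marrow Col14a1 had 69 to 464 counts, and Col16a1 stood at 1.05, 215, 14.2 and 0.795 CPM with HFD and 0.818, 1.07, 0.652, 0.705 and 0.846 CPM with glutamine, with 7478 counts in HFD library 5+11, 397 in 14+17 and 11 to 40 in the other 7.

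Col9a1, Col9a2 and Col9a3 encode the chains of the cartilage FACIT collagen IX, and Col22a1 a FACIT of tissue junctions. Col9a2 stood at 279.7, 0.316, 0.357 and 0.447 CPM with HFD and 462, 340.4, 0.948, 266 and 1.2 CPM with glutamine in bone marrow, with 4756 to 10731 counts in 4 libraries and 9 to 37 in the other 5. Col22a1 stood at 283, 297, 620.2 and 190.0 CPM with HFD and 132, 2.00, 138, 73.6 and 405 CPM with glutamine, low only in library 10+12. Of the 6 genes Col2a1, Col9a1, Col9a2, Col9a3, Col11a1 and Col11a2, all 6 reached 100 counts in library 18+20, 5 in libraries 1+3 and 10+12, 4 in 4+6, 3 in 5+11, 14+17, 25+27 and the unnumbered library, and 1 in 23+28. Col9a3 overlaps Tcfl5 by 234 exon bases on the other strand, so its counts are uncertain.

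Col15a1 and Col18a1, the multiplexins, encode collagens that sit at basement membranes and carry endostatin-type ends. Col15a1 stood at 529, 410.4, 426 and 453 CPM with HFD and 354, 537, 290.4, 484 and 432 CPM with glutamine in adipose, and Col18a1 at 119.8, 109, 172 and 93.4 CPM with HFD and 212, 120.3, 181, 144 and 107 CPM with glutamine. In bone marrow Col15a1 had 4853 counts in library 5+11, 1010 in 18+20 and 20 to 79 in the others. Col18a1 stood at 9.53, 0.403, 0.786 and 0.546 CPM with HFD and 0.732, 0.859, 0.474, 0.513 and 0.488 CPM with glutamine there, with 362 counts in HFD library 1+3 and 8 to 22 in the other 8.

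Of the network genes, Col8a1 encodes a short-chain collagen of vessels and other tissues, and stood at 126, 187, 194 and 132 CPM with HFD and 145, 161, 227, 239 and 53.4 CPM with glutamine in adipose and at 1.37, 694, 1.14 and 0.894 CPM with HFD and 21, 377, 16.5, 105 and 50.2 CPM with glutamine in bone marrow. Col8a2, its partner chain, had 4 counts in adipose library 25+27 and 197 to 1115 in the other 8, against 0 to 2 counts in bone marrow. Col10a1, the marker of hypertrophic cartilage, had 1695 to 5687 counts in 4 bone marrow libraries, 3 of them HFD, and 6 to 28 in the other 5. Nt5dc1 overlaps it by 18 exon bases on the other strand.

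The adipose library 25+27 was singled out after its values were seen. Of the 25 collagen genes with a mean of at least 10 CPM in adipose, it was the lowest of the 9 libraries for 8 and the highest for 11. Over all 9405 genes with such a mean it was the lowest for 9.86% and the highest for 9.38%. The 8 were Col4a5, Col4a6, Col8a1, Col8a2, Col6a5, Col6a6, Col14a1 and Col16a1, and the 11 were Col1a1, Col1a2, Col3a1, Col5a1, Col5a2, Col5a3, Col4a1, Col4a2, Col4a3, Col4a4 and Col6a3. Relative to the median of the other 8 libraries, Col6a5 stood at 0.980%, Col8a2 at 0.642%, Col4a6 at 17.5% and Col14a1 at 44.1%, while Col5a3 stood at 180% and Col1a1 at 150%. The mesothelial genes were nearly absent from the same library. Upk3b had 38 counts against 2721 to 17462 in the other 8, Msln 7 against 1153 to 4610, Lrrn4 7 against 489 to 2738 and Wt1 14 against 3879 to 7953. Their part in the collagen values was not tested.

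**Figure D3:**
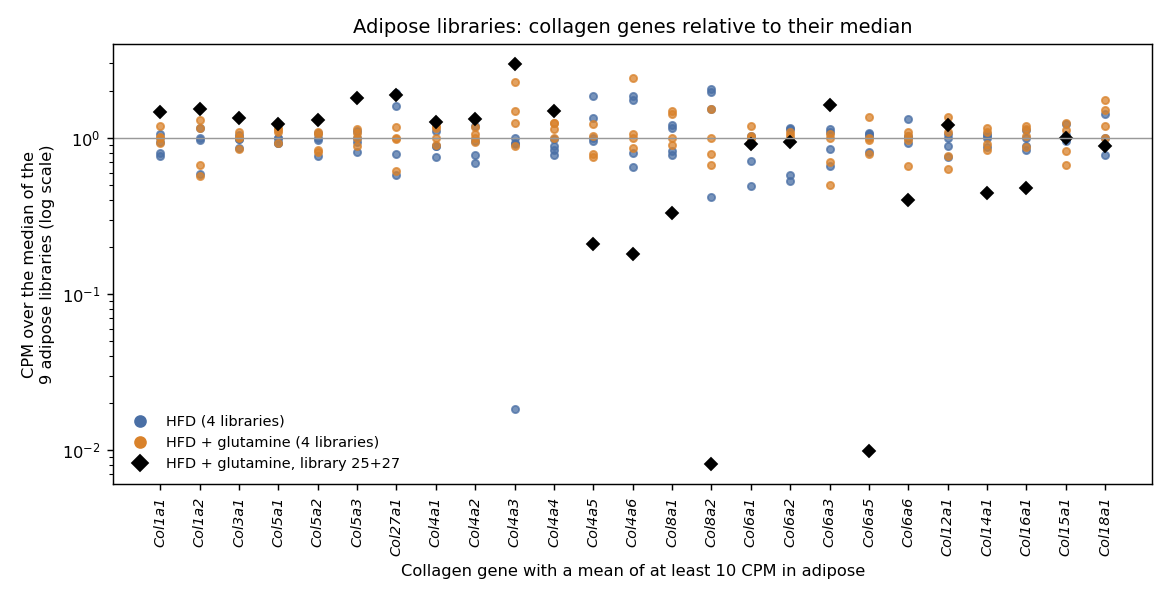
CPM of each collagen gene with a mean of at least 10 CPM in adipose, divided by its median over the 9 adipose libraries (vertical log axis); circles are the other 8 libraries by arm and diamonds the glutamine library 25+27. The diamonds are lowest for 8 genes, far below for Col6a5 and Col8a2, and highest for 11.

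With glutamine, no collagen gene was called in adipose. Of 37 collagen genes tested with edgeR's quasi-likelihood test, 0 had an adjusted p under 0.05 and 1 had an unadjusted p under 0.05, while 0.0% of the 15114 genes tested were called and 4.13% had such an unadjusted p. DESeq2 and limma-voom called 0 of the 37 as well, where DESeq2 called 0.205% of all genes. The fold change was positive for 22 of the 37, with a median of 0.08 on the log2 scale against -0.02 for all genes. By class, 8 of 11 fibrillar, 4 of 6 basement membrane, 3 of 6 beaded filament and 4 of 6 FACIT genes tested had positive values, none called.

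The smallest unadjusted p belonged to Col4a4, with a log2 fold change of 0.48 ± 0.19 (SE, edgeR adjusted p = 0.999808). It was the only collagen gene whose arms did not overlap in CPM in adipose, where 1.66% of all genes tested did not overlap and 1.05% were higher with glutamine without overlap. Its neighbour Col4a3 had 1.29 ± 0.83 (SE, edgeR adjusted p = 0.999808), with overlapping arms. Next came Col6a1 with 0.37 ± 0.20 (SE) and Col4a5 with -0.71 ± 0.39 (SE), both with the same adjusted p. Without library 25+27 the fold change was 0.40 for Col4a4 and -0.46 for Col4a5. Without HFD library 23+28, which was the lowest for Col6a1, that gene stood at 0.19.

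The error of most abundant genes was small in adipose. On the log2 scale the fold change was 0.30 ± 0.17 (SE) for Col1a1, 0.10 ± 0.16 for Col3a1, 0.18 ± 0.14 for Col5a1, 0.26 ± 0.16 for Col4a1 and -0.18 ± 0.23 for Col14a1. The low genes Col28a1, Col22a1 and Col20a1 had larger values of 2.77 ± 1.67, 2.12 ± 1.56 and 1.31 ± 2.26.

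In bone marrow 0 of 30 collagen genes tested were called with edgeR, where 0.132% of the 6041 genes tested were called, all of them lower with glutamine. At an unadjusted p under 0.05 there were 3 collagen genes, against 18.7% of all genes tested. DESeq2 called 2 of the 30, against 12.0% of all genes tested. Limma-voom with quality weights called 1 of the 30, the 1 gene it called of all 6041 (0.0166%). A joint fit of both tissues called 5 of 40, against 25.8% of all genes. The fold change was positive for 10 of the 30, with a median of -0.53 on the log2 scale against -0.22 for all genes. None of the 30 had arms that did not overlap in CPM, against 3.77% of all genes tested.

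The 3 genes with the smallest p were Col1a1, Col16a1 and Col18a1. Col1a1 had -0.80 ± 0.21 (SE, edgeR adjusted p = 0.0737), and its arms overlapped in CPM. Leaving out 1 library moved it between -1.23 and -0.15, the latter without HFD library 14+17. With edgeR it was called without HFD 1+3 (adjusted p = 0.0184), HFD 23+28 (3.79e-13) or the unnumbered library (0.0159). The arms overlapped in CPM in these fits too, and the mean over all bone marrow libraries was 141214 CPM with HFD and 116388 CPM with glutamine. An edgeR adjusted p as small as 3.79e-13 therefore does not describe the spread of this gene's CPM. Col1a1 was the gene called by limma-voom, at -1.06 ± 0.19 (SE, adjusted p = 0.00627). With RLE or upper-quartile factors edgeR called no collagen gene in bone marrow. Col16a1 had -6.23 ± 2.7 (SE, edgeR adjusted p = 0.198), and -3.64 (adjusted p = 0.263) without library 5+11, which held 7478 of its counts. Col18a1 had -2.24 ± 1.10 (SE, edgeR adjusted p = 0.242), and -0.86 without HFD library 1+3.

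DESeq2 called Col16a1 and Col5a3. Col5a3 had a DESeq2 log2 fold change of -5.90 ± 1.50 (SE, adjusted p = 0.000987), while edgeR gave -4.76 ± 2.65 (SE, adjusted p = 0.328). Its counts were 4962 and 2935 in HFD libraries 1+3 and 23+28 and 38 to 602 in the other 7. The fit was also run without the 2 bone marrow libraries with the fewest detected genes, HFD 23+28 and the unnumbered library. There Col1a1 and Col1a2 of 31 collagen genes were called lower with glutamine, where 0.0874% of all genes were called. Col1a2 had -0.94 ± 0.19 (SE, edgeR adjusted p = 0.00146), and its arms overlapped in CPM in this fit too. Over all bone marrow libraries its mean was 40485 CPM with HFD and 41348 CPM with glutamine. Without further scaling its CPM was thus not lower on average.

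**Figure D4:**
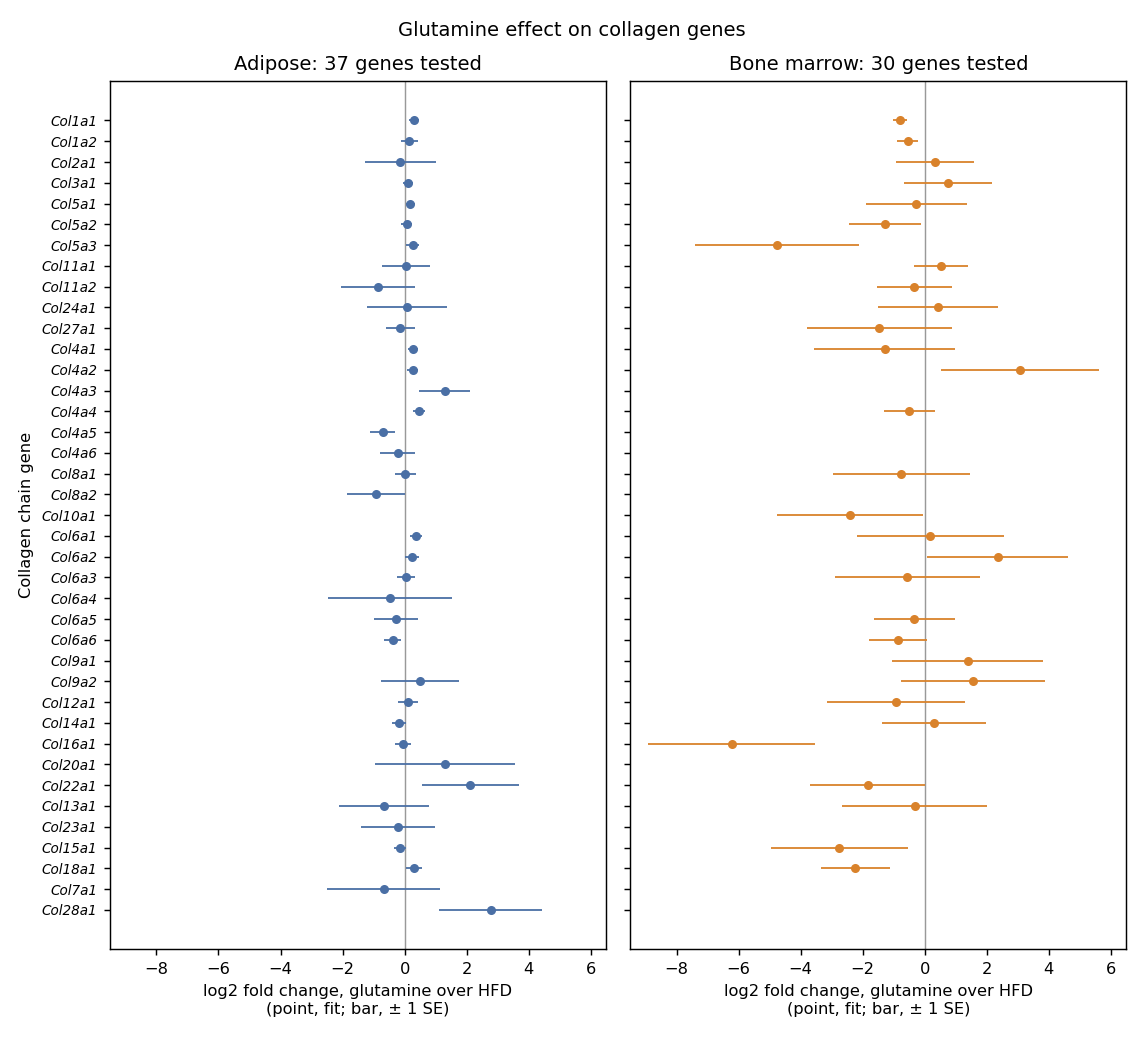
log2 fold change of glutamine over HFD (horizontal axis, points, with bars of ± 1 SE) for each collagen gene tested (vertical axis) in adipose and in bone marrow. Adipose points of abundant genes lie near 0 with short bars. Bone marrow bars are longer and are shortest for Col1a1 and Col1a2. No collagen gene was called in either tissue.

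The spread behind these errors can be seen in the bone marrow counts. Of 26 collagen genes above 50 CPM in some bone marrow library, 22 had a highest library over 40 times the lowest, which was 84.6% against 97.9% of all 8346 such genes. The 4 with less spread were Col1a1, Col1a2, Col5a2 and Col11a1. In adipose 1 of 21 such collagen genes, Col6a5, spread that far, against 2.73% of 5827 genes. The median ratio of the highest to the lowest library was 267 for the collagen genes and 1543 for all genes in bone marrow, and 2.27 and 2.65 in adipose.

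For most collagen genes abundant in adipose, the lowest bone marrow library was a small percent of the adipose mean. Of the 22 collagen genes with a mean of at least 25 CPM in adipose, 19 had a lowest bone marrow library under 1% of that mean. For these 19 the lowest library was 0.145% to 0.550% of the adipose mean, with a median of 0.307%. The others were Col1a1, Col1a2 and Col5a2, at 719%, 293% and 115%. Taken over all 22 genes, the median was 0.319% for the collagen genes and 0.376% over all 6293 genes with such a mean, of which 91.0% had a lowest library under 1%. Col6a5 stayed at 0.301% to 0.761% of its adipose mean in all 9 bone marrow libraries, Col6a6 at 0.284% to 0.724% and Col4a4 at 0.257% to 0.781%. In the other direction the median adipose library, not the lowest, was set against the bone marrow mean. Over the 15 collagen genes averaging at least 100 CPM in bone marrow its median was 10.3%, against 59.1% over all 2122 such genes. Of these 15, 6 had a lowest adipose library under 1% of that mean, against 6.88% of all such genes. The median adipose library stood at 0.163% for Col2a1, 0.154% for Col11a1, 0.144% for Col11a2 and 0.0900% for Col24a1. The 2 directions thus differ in the library and in the CPM cut. For a like measure, the median bone marrow library was set against the adipose mean at 100 CPM or more. Its median was 2.30% over 19 collagen genes and 16.4% over all 1987 such genes. What sets the low counts in either tissue was not tested.

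**Figure D5:**
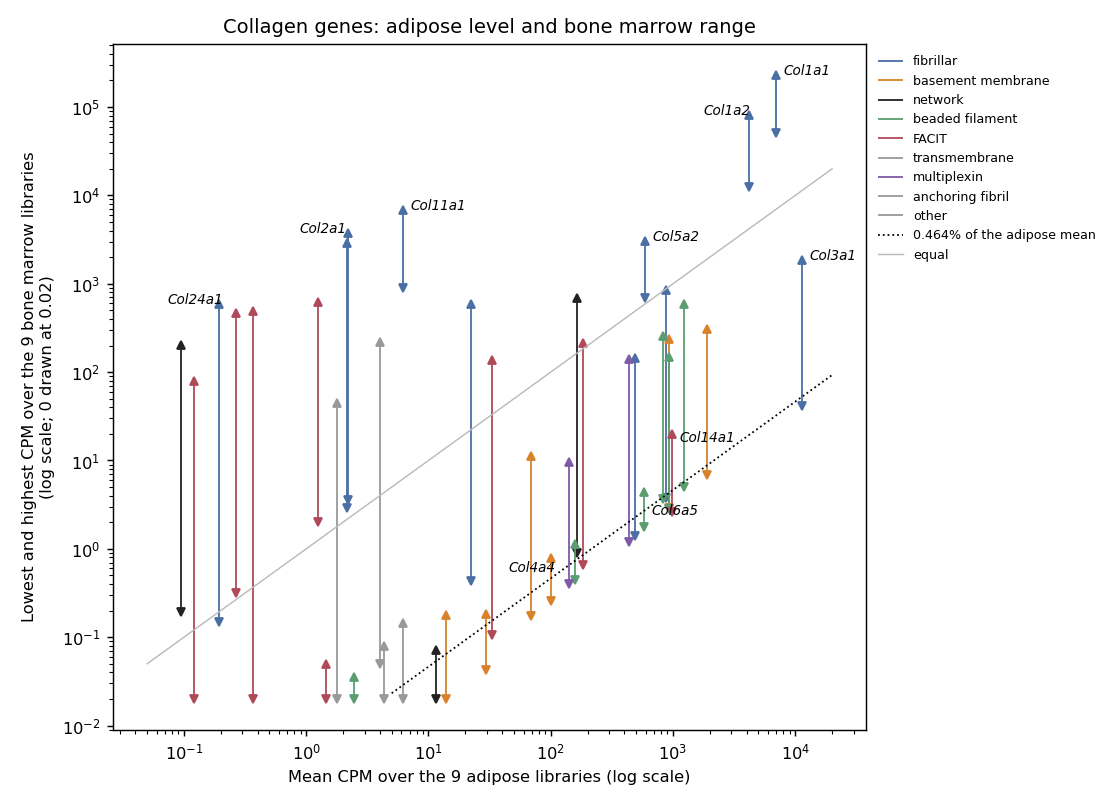
Mean CPM over the 9 adipose libraries (horizontal log axis) against the lowest and highest CPM over the 9 bone marrow libraries (triangles joined by a line, vertical log axis) for each collagen gene with counts in both tissues, by class. The dotted line at 0.464% of the adipose mean is the median, over all 1987 genes with at least 100 CPM in adipose, of the lowest bone marrow library. Many lower triangles lie near it. Col1a1, Col1a2, Col2a1, Col5a2, Col11a1, Col11a2, Col10a1, Col9a2 and Col22a1 lie above the line of equal values throughout.

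The glutamine effect differed between tissues for 1 of 40 collagen genes tested, Col16a1, where 11.9% of all 15203 genes tested were called and 4.05% were called in its direction. The effect in adipose minus the effect in bone marrow was 6.17 ± 1.92 on the log2 scale (SE, edgeR adjusted p = 0.0447). In adipose Col16a1 had -0.05 ± 0.25 (SE). Without bone marrow HFD library 5+11 the difference was 3.26 ± 1.52 (SE, edgeR adjusted p = 0.165). The call was lost when any 1 of the 9 adipose libraries was left out, with an adjusted p of 0.0683 to 0.0817, and without bone marrow HFD library 14+17 (0.0550) or 23+28 (0.0530). No gene at all was called in any of these 9 fits without an adipose library, nor without bone marrow HFD library 23+28 or with RLE or upper-quartile factors. For Col16a1 the call was also lost with RLE factors (0.0637), upper-quartile factors (0.168), no count filter (0.0525) and limma-voom (1.00). DESeq2 called Col16a1 and Col5a3, where it called 6.94% of all genes.

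Between tissues, 18 of 40 collagen genes tested were higher in all 9 adipose libraries than in any bone marrow library, where 16.0% of all genes tested were, and 5 were lower in all 9, where 0.21% were. These are CPM with no further scaling. The 18 held all 6 basement membrane genes, 5 of 6 beaded filament genes, both multiplexins, and Col3a1, Col5a3, Col8a2, Col14a1 and Col23a1. The 5 were Col1a1, Col1a2, Col2a1, Col11a1 and Col10a1, the last at 0.0208 to 0.174 CPM in adipose and 0.195 CPM in its lowest bone marrow library. The tissue and any difference in how its cells were isolated or its libraries handled cannot be told apart.

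In the edgeR fit with TMM factors 20 of the 40 were called higher in adipose and 14 lower, against 40.5% and 11.2% of all genes tested. The median over all genes was itself 1.43 on the log2 scale with TMM factors, -1.94 with RLE factors and -0.89 with upper-quartile factors, so the higher calls depended on scaling, and RLE factors gave 4 higher and 19 lower, against 16.2% and 42.9% of all genes. Upper-quartile factors gave 2 higher and 17 lower, against 21.2% and 33.8%. Under all 3 scalings 14 genes were called lower and 2 higher, against 11.2% and 15.7% of all genes. The 14 were 8 of the 11 fibrillar genes, Col9a1, Col9a2, Col9a3 and Col22a1 of the FACIT class, Col10a1 and Col13a1. The 2 were Col4a6 and Col8a2.

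Among genes averaging at least 2 on the log2 CPM scale, the lowest fold changes of adipose over bone marrow were those of Col24a1, Col10a1, Col11a1, Col11a2, Col2a1 and Col9a2. Col11a1 had the smallest error of these, at -10.99 ± 0.54 (SE, edgeR adjusted p = 8.12e-12), and Col24a1 the largest, at -11.75 ± 2.08 (SE, edgeR adjusted p = 8.64e-05). Col1a1 had -6.11 ± 0.28 and Col1a2 -5.11 ± 0.31, with -9.88 and -8.84 under RLE factors. Relative to the median of all genes with TMM factors, 1.43, these genes lay further down still. The size of the fitted values depended on scaling. Without further scaling, Col1a1 averaged 127422 CPM over the bone marrow libraries against 6992 CPM over the adipose libraries. For Col1a2 these averages were 40965 against 4193 CPM. Both gaps in CPM were smaller than the fitted fold changes of these 2 genes, with TMM and with RLE factors.

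The highest were those of Col4a6, Col6a5, Col6a6, Col4a4, Col14a1 and Col18a1. Col4a6 had 6.11 ± 0.77 (SE, edgeR adjusted p = 3.89e-06) with TMM factors and 2.41 (adjusted p = 0.00527) with RLE factors. Col6a5 had 6.05 ± 0.90 with TMM factors and 2.24 (adjusted p = 0.0544) with RLE factors.

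For Col3a1, Col4a1, Col5a3, Col6a1, Col6a2, Col6a3 and Col16a1 the sign of the fitted fold change turned with scaling, positive with TMM and negative with RLE factors. Col3a1 had 2.13 ± 0.49 with TMM factors (SE, edgeR adjusted p = 0.00119) and -1.72 with RLE factors (adjusted p = 0.0454), although its CPM was higher in all 9 adipose libraries. Col5a1 and Col8a1 were not called with TMM factors, and their CPM overlapped between tissues.

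Collagen is hydroxylated, folded and exported with the help of enzymes and chaperones, and is bound by integrin and DDR receptors and cut by proteases. None of the 30 modification, folding, secretion and processing genes, 9 receptors and 6 proteases tested in adipose was called with glutamine by edgeR, nor was any of the 21, 5 and 4 tested in bone marrow. The difference of the glutamine effect was called for 2 modification genes, P3h2 and Crtap, both lower, and 2 receptors, Mrc2 higher and Lair1 lower, where 4.05% of all genes were called higher and 7.87% lower. These calls too were absent from every fit without 1 adipose library and with RLE or upper-quartile factors. Mrc2, an endocytic collagen receptor, and Lair1 each reached 100 counts in 1 bone marrow library.

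Between tissues with TMM factors, 5 of the 30 modification genes were called higher in adipose and 7 lower, against 40.5% and 11.2% of all genes, with a median of -1.13 on the log2 scale against 1.43 for all genes. The 7 were P4ha1 and P4hb of prolyl 4-hydroxylase, the lysyl hydroxylase Plod2, the collagen chaperone Fkbp10, Adamts3, Pcolce and Lox. Adamts3 and Pcolce belong to propeptide removal, and Lox starts cross-linking. P4hb, Pcolce and Lox were close to the threshold (edgeR adjusted p = 0.0488, 0.0473 and 0.0490). In CPM with no further scaling the 30 genes summed to 5311 to 6767 in adipose and 2394 to 6363 in bone marrow. By that sum the list was not lower in adipose. Loxl1, a lysyl oxidase tied to elastic fibres, was higher, at 676 to 1136 CPM in adipose and 3.28 to 161 CPM in bone marrow. Ddr1 was the receptor with the firmest call, at 29.3 to 115 CPM in adipose and 0.178 to 0.353 CPM in bone marrow, with a log2 fold change of 6.25 ± 0.81 (SE, edgeR adjusted p = 3.97e-06). Of the 6 proteases, Mmp13 and Mmp8 were called lower in adipose, Mmp13 at 0.374 to 6.87 CPM against 0.596 to 753 CPM in bone marrow.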

How the data were processed

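RNA of 18 libraries was read near the 3′ end with a QuantSeq FWD kit from 30 ng of total RNA, read 1 only, per the labels' protocols. The submitters' processing notes name FastQC 0.12.1, STAR 2.7.10b, HTSeq 0.11.3 and GRCm38. The annotation and the strand setting of the counting were not stated in labels or files. The authors deposited raw counts per gene for each tissue, and no column of values was left unused. CPM was computed as counts over the library total. Each fit used all genes of a table in R 4.3.3 with edgeR 4.0.16 (filterByExpr, TMM, glmQLFit, glmQLFTest, Benjamini-Hochberg adjusted p under 0.05), and SE is the fold change over the root of F. The fit scripts were tested on simulated data. Alternatives were RLE and upper-quartile factors, no filter, DESeq2 1.42.0, limma 3.58.1 voom with quality weights, a joint fit, single arms, a replicate block and left-out libraries. Per-library values were given for collagen genes with a mean of at least 100 CPM in a tissue, any called for glutamine or its difference, the 3 smallest p of each tissue and those whose arms did not overlap. Between tissues the 6 largest fold changes each way were named, among genes averaging 2 or more in log2 CPM. The members and lists were chosen with earlier results of these data known. Positions are from GENCODE M21 and promoters from RefSeq, both on GRCm38. Library totals were 35871168 to 59529238 counts in adipose and 13970788 to 37984603 in bone marrow.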

Additional observations from a re-analysis of the deposited data

Results flagged for a closer look

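Among 91 groups of values, 12 held a library that stood apart from the others of its group by Dixon's criterion. The criterion is met by chance in about 1 in 20 groups only for independent, normally distributed values. These were unlogged CPM and ratios, and many groups share libraries, so no excess over chance can be read from the 12. In adipose, HFD library 23+28 was lowest for Col6a5, at 525 CPM against 667 CPM for the next, and for the ratio of Col4a2 to Col4a1, at 0.377 against 0.499. The adipose glutamine library 25+27 was highest for Col5a3, at 813 CPM against 516 CPM. In bone marrow, HFD library 14+17 was highest for Col11a2, at 2869 CPM against 429 CPM, and for Col24a1, at 487 CPM against 0.342 CPM.

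HFD library 1+3 of bone marrow was highest for Col27a1, at 583 CPM against 11.8 CPM, and for Col9a2, at 279.7 CPM against 0.447 CPM. It was also highest for the ratio of Col1a2 to Col1a1, at 0.475 against 0.270, and of Col3a1 to Col1a1, at 0.0124 against 0.00277. HFD library 5+11 was highest for Col8a1, at 694 CPM against 1.37 CPM. Glutamine library 10+12 was highest for Col8a1, at 377 CPM against 105 CPM, and for the ratio of Col5a2 to Col5a1, at 10.8 against 2.41.

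The glutamine effect on Col16a1 differed between tissues in the test of the difference itself, by 6.17 on the log2 scale (edgeR adjusted p = 0.0447, adipose minus bone marrow), and by 3.26 (adjusted p = 0.165) without bone marrow HFD library 5+11.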

How the results depend on the processing

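The number of collagen genes called for glutamine in adipose was 0 under every alternative run. In bone marrow it was 0 (0.132% of all genes), and 2 with DESeq2 (12.0%), 5 of 40 in the joint fit (25.8%) and 1 with limma-voom (0.0166%). Without the 2 libraries with the fewest detected genes it was 2 (0.0874%). It was 0 to 1 when 1 library was left out, where 0 to 19 of all genes were called. For the difference it was 1 (11.9% of all genes), and 2 with DESeq2 (6.94%). It was 0 with limma-voom, no count filter, RLE factors or upper-quartile factors. It was also 0 with the replicate block or the same libraries with no block (chosen after seeing the data). Without the 2 libraries with the fewest detected genes it was 2, with 1477 of all 16253 genes called. It was 0 to 2 when 1 library was left out, where 0 to 2681 of all genes were called. Calls higher in adipose numbered 20 (40.5% of all genes), and 4 with RLE factors (16.2%) and 2 with upper-quartile factors (21.2%). DESeq2 gave 6, and 2262 of all 15203 genes. The HFD arm alone gave 12, and 5726 of all genes. With 1 library left out there were 18 to 23, and 5635 to 6825 of all genes. Calls lower numbered 14 (11.2% of all genes), and 19 with RLE factors (42.9%) and 17 with upper-quartile factors (33.8%). DESeq2 gave 19, and 4160 of all 15203 genes. Limma-voom gave 11, and 378 of all genes, and the HFD arm alone gave 11, and 899 of all genes. With 1 library left out there were 12 to 14, and 1209 to 1731 of all genes. Adipose over bone marrow turned sign with RLE factors for Col16a1 (-0.70), Col3a1 (-1.72), Col4a1 (-1.14), Col5a3 (-0.53), Col6a1 (-1.59), Col6a2 (-2.23) and Col6a3 (-1.82), with upper-quartile factors for Col3a1 (-1.25), Col5a3 (-0.27), Col6a1 (-0.09), Col6a2 (-1.14) and Col6a3 (-1.35), and with DESeq2 for Col16a1 (-0.70), Col3a1 (-1.72), Col4a1 (-1.14), Col5a3 (-0.53), Col6a1 (-1.59), Col6a2 (-2.23) and Col6a3 (-1.82). Col16a1 stood at -0.13 in the HFD arm alone, and Col8a1 turned from -1.49 to 1.33 with limma-voom and 1.50 with the replicate block, and ranged from -1.58 to 2.20 when 1 library was left out, the latter without bone marrow HFD library 5+11. The cause was not tested. The labels do not say what same-numbered libraries of both tissues share. Their deviations correlated at -0.009 to 0.030, and 4 of 8 correlated best with their own number. Whether they came from the same animals was not tested. With the replicate block 18 collagen genes were called higher and 11 lower in adipose, where 7169 and 330 of all 14814 genes were. In the same libraries without the block they numbered 19 and 13, where 5738 and 1453 of all genes were called. The difference for Col16a1 with the block was 3.15 (edgeR adjusted p = 1.0). The number of collagen genes at 100 counts was 20 in the bone marrow library with the fewest counts, 10+12 (13970788), and 10 in 23+28 (20138289), and the part of depth was not tested.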
